A study of Mus musculus with 8 samples.

Results

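The genes described here encode the proteins of the cytosolic ribosome and their close paralogs. They were the rows annotated as protein-coding whose symbols begin Rpl or Rps followed by a number, the P proteins Rplp0, Rplp1 and Rplp2, and Rpsa, without the ribosomal S6 kinases and Rps19bp1. The rule found 93 of the 54532 rows. Of these, 77 were core genes of the ribosome, 46 of the large (60S) and 31 of the small (40S) subunit. A further 8 were paralogs and 8 were copies with pseudogene names that the table annotates as protein-coding. The low-count filter kept 13560 genes of the whole table, among them all 77 core genes, 5 paralogs and 5 copies.

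The cells were LSK cells (Lin- SCA-1+ C-KIT+), the bone marrow compartment that holds hematopoietic stem cells and multipotent progenitors. They came from C57BL/6 mice of 8 to 12 weeks with floxed Zeb1 alleles and Mx1-Cre, on day 14 after pIpC treatment ended. All 8 libraries carried the Zeb1 deletion (Zeb1-/-), so the comparison is between cells sorted as EpCAM+ (n = 4 libraries) and as EpCAM- (n = 4), with no undeleted control. Mx1-Cre is driven by an interferon-responsive promoter and also recombines in nonhematopoietic tissue, and pIpC, given to the mice of both fractions, is known to evoke an interferon response. EpCAM, the gene product used for the sort, is an epithelial adhesion molecule.

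Each ribosome contains one copy of nearly every ribosomal protein, and cells make these proteins in amounts that match. Their mRNAs are among the most abundant in a growing cell and share a 5′ terminal oligopyrimidine (TOP) motif, a run of C and T that begins at the first transcribed base and through which mTORC1 and LARP1 set their translation. Hematopoietic stem cells are known for a low rate of protein synthesis, and inherited loss of 1 copy of several of these genes causes Diamond-Blackfan anemia, a failure of red cell production.

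The libraries held 14114491 to 17073546 counted reads. Epcam was measured at 187 ± 32.7 CPM (mean and SD, n = 4) in EpCAM+ and 3.86 ± 3.61 CPM in EpCAM- libraries. CPM are counts per 1e6 reads on the genes tested, with library sizes scaled by TMM. Epcam is the sort marker, so it is no finding. Zeb1 was measured at 14.8 to 23.7 CPM in EpCAM+ and 9.49 to 14.0 CPM in EpCAM- libraries. The count includes exons outside the deleted part and both fractions are deleted, so it does not check the deletion. The summed CPM of marker genes of other cell types differed between fractions. Of 10 B cell and plasma cell markers the sum was 1590 to 23739 CPM in EpCAM+ and 163 to 321 CPM in EpCAM-, with Pax5 at 0 throughout. For 10 dendritic cell markers it was 1227 to 15357 CPM against 254 to 505 CPM, for 9 neutrophil and monocyte markers 1725 to 2495 CPM against 12271 to 19691 CPM, and for 9 erythroid and megakaryocyte markers 184 to 566 CPM against 2135 to 7026 CPM. For 8 T and NK cell markers it was 635 to 797 CPM against 685 to 886 CPM, with Cd3e at 0 in the EpCAM- libraries. The 8 LSK markers summed to 2264 to 2605 CPM in EpCAM+ and 1233 to 1823 CPM in EpCAM- libraries. The part of these differences in the results that follow was not tested, and in bulk RNA fewer cells of a type and less RNA per cell cannot be told apart.

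Core ribosomal protein transcripts were modestly lower in EpCAM+ than in EpCAM- LSK cells. Of the 77 core genes, 22 (28.6%) fell and 0 rose at an adjusted p under 0.05 (edgeR quasi-likelihood test, Benjamini-Hochberg over all genes tested), where 20.8% of all genes tested fell and 21.8% rose. At an unadjusted p under 0.05 the counts were 35 lower and 1 higher, where 25.1% of all genes were lower and 26.2% higher. DESeq2 called 34 core genes lower and 1 higher, while upper-quartile scaling left 11 lower and 1 higher and library totals 13 lower and 1 higher. The shares of all genes called in these fits are not given, so the counts are not set against a background. The median log2 fold change (EpCAM+ over EpCAM-) of the core genes was -0.27, with quartiles of -0.38 and -0.12, beside 0.02 for all genes tested. In 67 of the 77 genes the estimate was below 0, beside 6510 of the 13560 genes tested. The core genes share the same libraries, so these are not separate observations.

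The number of calls changed with the libraries used. The 4 EpCAM+ levels lay below all 4 EpCAM- levels in 14 core genes (18.2%), against 20.0% of all genes lower and 20.1% higher without overlap, and no core gene was higher without overlap. Of the 22 genes called lower, 12 were still called whichever library was left out. The count was 13 without EpCAM- replicate 4, 14 without EpCAM- replicate 2, 15 without EpCAM+ replicate 1 and 39 without EpCAM- replicate 1. For those fits, too, the shares of all genes called are not given.

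Within replicate numbers the shift was more uniform. With the replicate number as a block, 51 core genes fell and 1 rose (Rps27), beside 24.7% of all genes lower and 25.6% higher in the same fit. Across the 4 numbered pairs, 55 core genes (71.4%) were lower in EpCAM+ in every pair and 0 were higher in every pair, beside 30.6% and 32.0% of all genes. The core median within pairs was -0.28, -0.32, -0.16 and -0.22 log2 units for numbers 1 to 4, and 71, 75, 57 and 63 of the 77 genes were lower. Over all genes tested the same 4 medians ran from -0.0020 to 0.03, and 47.9 to 50.2% of genes were lower.

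**Figure D1:**
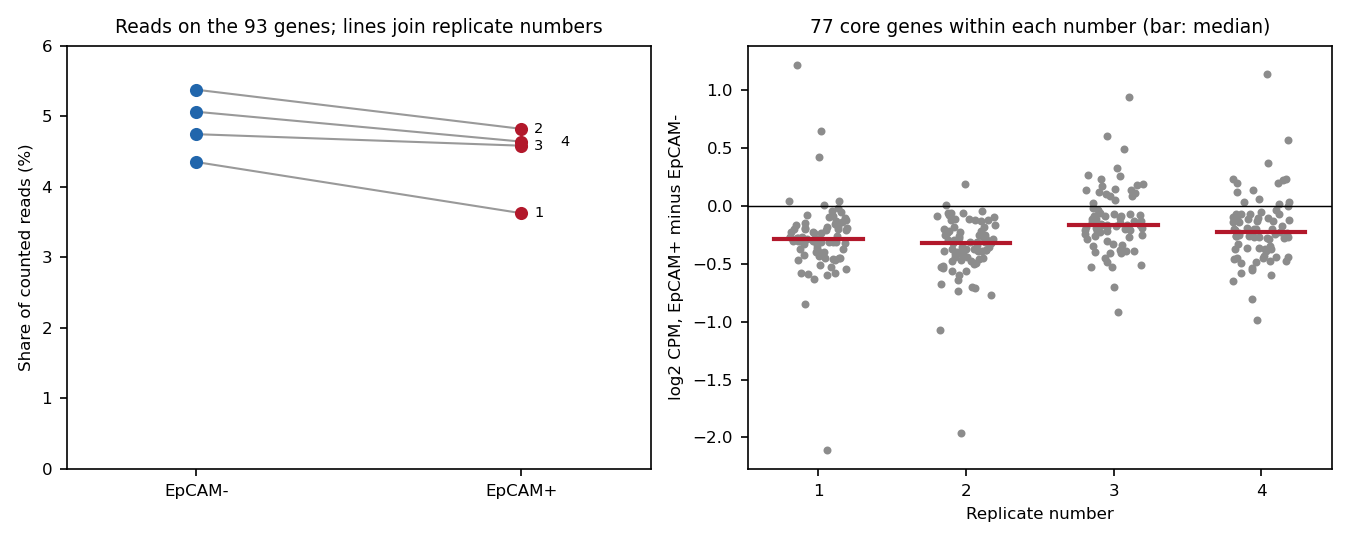
Left, the share of counted reads (%) that fell on the 93 genes in each of the 8 libraries, with grey lines joining libraries of the same replicate number. Right, the difference in log2 CPM (EpCAM+ minus EpCAM-) of each of the 77 core genes within each number, with a red bar at the median, which was -0.28, -0.32, -0.16 and -0.22.

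The 93 genes took 3.62, 4.82, 4.58 and 4.64% of counted reads in EpCAM+ replicates 1 to 4, and 4.35, 5.37, 4.74 and 5.06% in the EpCAM- replicates. The ranges overlapped, while in each numbered pair the EpCAM+ library was the lower. EpCAM+ replicate 1 stood lowest and was also the library with the highest summed B cell and plasma cell markers (23739 CPM). The core median was -0.19 without that library and -0.19 without EpCAM- replicate 2.

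Calls were made in both subunits. Of the large subunit genes 16 of 46 fell (34.8%), with a median of -0.28. Of the small subunit genes 6 of 31 fell (19.4%), a share close to the 20.8% of all genes that fell. The small subunit median was -0.20, and it was -0.11 with upper-quartile scaling or library totals and 0.042 when libraries were scaled to the core genes themselves. With the replicate block 34 of 46 (73.9%) and 17 of 31 (54.8%) fell, beside 24.7% of all genes. The ratio of large to small subunit reads was 1.41 to 1.44 in EpCAM+ and 1.42 to 1.49 in EpCAM- libraries, ranges that overlapped, although the EpCAM+ ratio was the lower in all 4 numbered pairs. The difference between subunits was not tested. The change of a core gene followed neither its level nor its length. Across the 77 genes, which share libraries and depth, Pearson's r of log2 fold change with level per length was -0.09 and with gene length 0.0042.

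**Figure D2:**
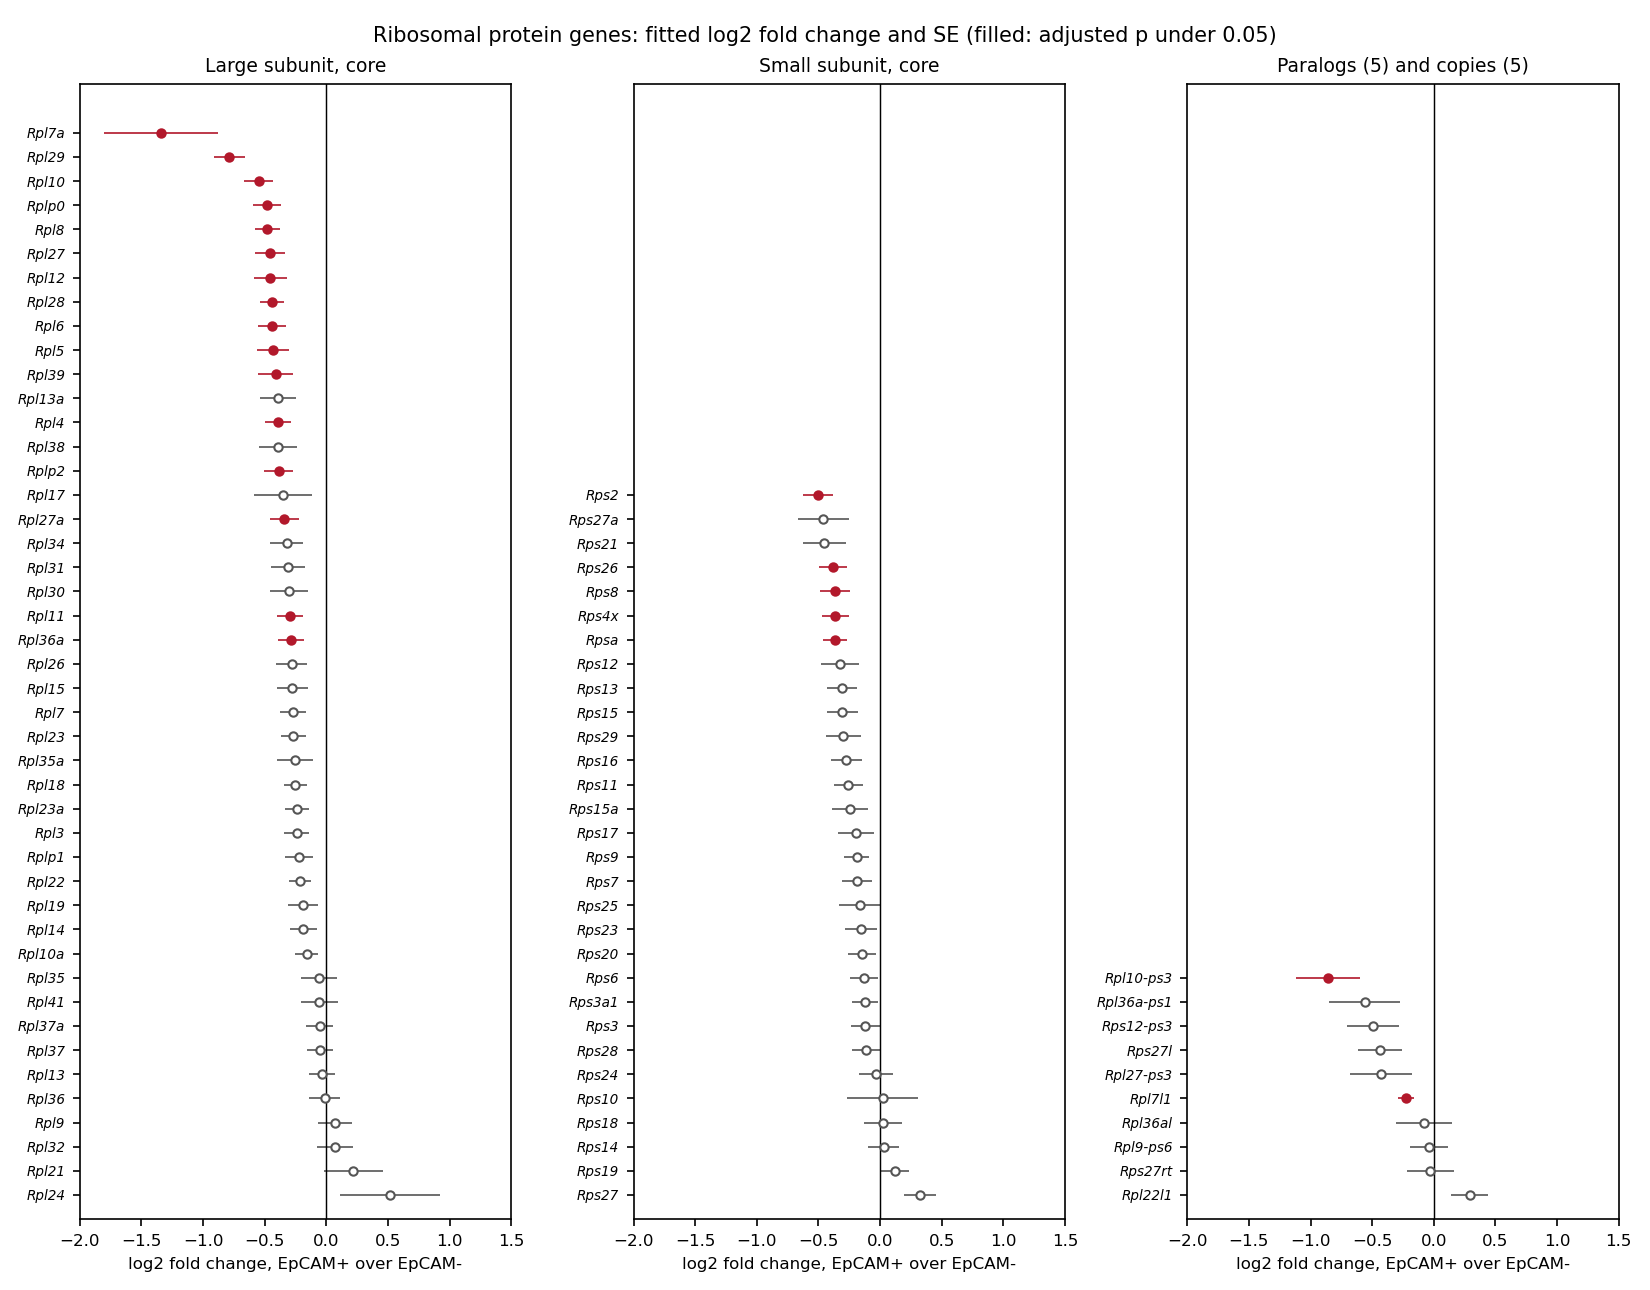
Fitted log2 fold change (EpCAM+ over EpCAM-; horizontal bars, SE) of large and small subunit core genes, all but 1 of each, and of the 5 paralogs and 5 copies that were tested. Filled red points had an adjusted p under 0.05: all lie left of 0, while Rpl24 and Rps27 lie farthest right among the core genes without passing the test.

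Among large subunit proteins, Rpl29 (chr9:106429454-106431568, + strand, GRCm38.p6) which encodes a small basic protein also found to bind heparin, had the smallest adjusted p. Its levels were 232, 298, 272 and 299.7 CPM in EpCAM+ replicates 1 to 4 and 417, 449.7, 442 and 595 CPM in EpCAM- replicates 1 to 4. The fractions did not overlap, and Rpl29 fell by 0.79 on the log2 scale (SE 0.13, adjusted p = 0.00102), 1.73-fold in linear terms. Rpl10, the X-linked protein that completes the 60S subunit late in its maturation, was at 552, 588, 582 and 720.4 CPM in EpCAM+ and 746, 999.6, 841 and 984 CPM in EpCAM- libraries. Again no EpCAM+ library reached an EpCAM- one (log2 fold change -0.55, SE 0.12, adjusted p = 0.00471), although reads of Rpl10 cannot be placed with certainty, as described further on. Rpl8, a conserved protein near the peptidyl transferase center, was at 698 to 832 CPM in EpCAM+ and 954 to 1219 CPM in EpCAM- libraries (-0.48, SE 0.10, adjusted p = 0.00362). Rpl28 (-0.44, adjusted p = 0.00485), Rpl6 (-0.44, adjusted p = 0.00939) and Rpl27 (-0.46, adjusted p = 0.0139) fell by similar amounts, each without overlap, and Rpl4, whose loop reaches into the exit tunnel, fell by 0.39 (adjusted p = 0.0139).

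The ribosomal stalk, which recruits the translation factors that hydrolyze GTP, is built on Rplp0 with the acidic proteins Rplp1 and Rplp2, and Rpl12 sits at its base. Rplp0 was at 1589.7, 1958, 1781 and 2013 CPM in EpCAM+ replicates 1 to 4 and at 2133, 2717, 2571 and 2819.9 CPM in the EpCAM- replicates. The fractions were separate, with EpCAM- replicate 1 nearest to the EpCAM+ libraries (-0.48, SE 0.11, adjusted p = 0.00738). Rpl12 (-0.45, adjusted p = 0.0197, with overlapping fractions) and Rplp2 (-0.39, adjusted p = 0.0238, without overlap) also fell, so that 3 of the 4 stalk genes passed the test. Of all genes tested 20.8% fell. The Rplp2 call was lost without EpCAM+ replicate 1, EpCAM- replicate 2 or EpCAM- replicate 4. Rplp1 was estimated at -0.22 (adjusted p = 0.128) and passed in the blocked fit (adjusted p = 0.00828).

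Rpl5 and Rpl11 bind 5S ribosomal RNA, and when ribosome assembly is disturbed the same particle binds MDM2 and stabilizes p53. Rpl5 was at 615, 861, 838 and 852 CPM in EpCAM+ and 873, 1125, 1111 and 1156 CPM in EpCAM- libraries. EpCAM+ replicate 1 and EpCAM- replicate 1 were each the low library of their fraction, and the fractions did not overlap (-0.43, SE 0.13, adjusted p = 0.0219). Rpl11, at 298 to 379 CPM against 360.5 to 473 CPM, overlapped and was called at -0.29 (SE 0.11, adjusted p = 0.0476). The Rpl11 call was lost in 6 of the 8 fits that left out a library, and the Rpl5 call was lost without EpCAM- replicate 3 or 4.

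In the small subunit, Rps2, which lies at the mRNA entry channel, was at 1144, 1378, 1216 and 1453 CPM in EpCAM+ and 1564, 1879, 1728 and 2193 CPM in EpCAM- libraries. The lowest EpCAM- library exceeded the highest EpCAM+ one (-0.50, SE 0.12, adjusted p = 0.00782). Rpsa, the small subunit protein also known as the laminin receptor precursor, was at 938 to 1133 CPM against 1165 to 1459 CPM (-0.36, SE 0.10, adjusted p = 0.0132). Rps4x, a small subunit gene on the X chromosome, fell by 0.36 (adjusted p = 0.0211) with overlapping fractions.

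**Figure D3:**
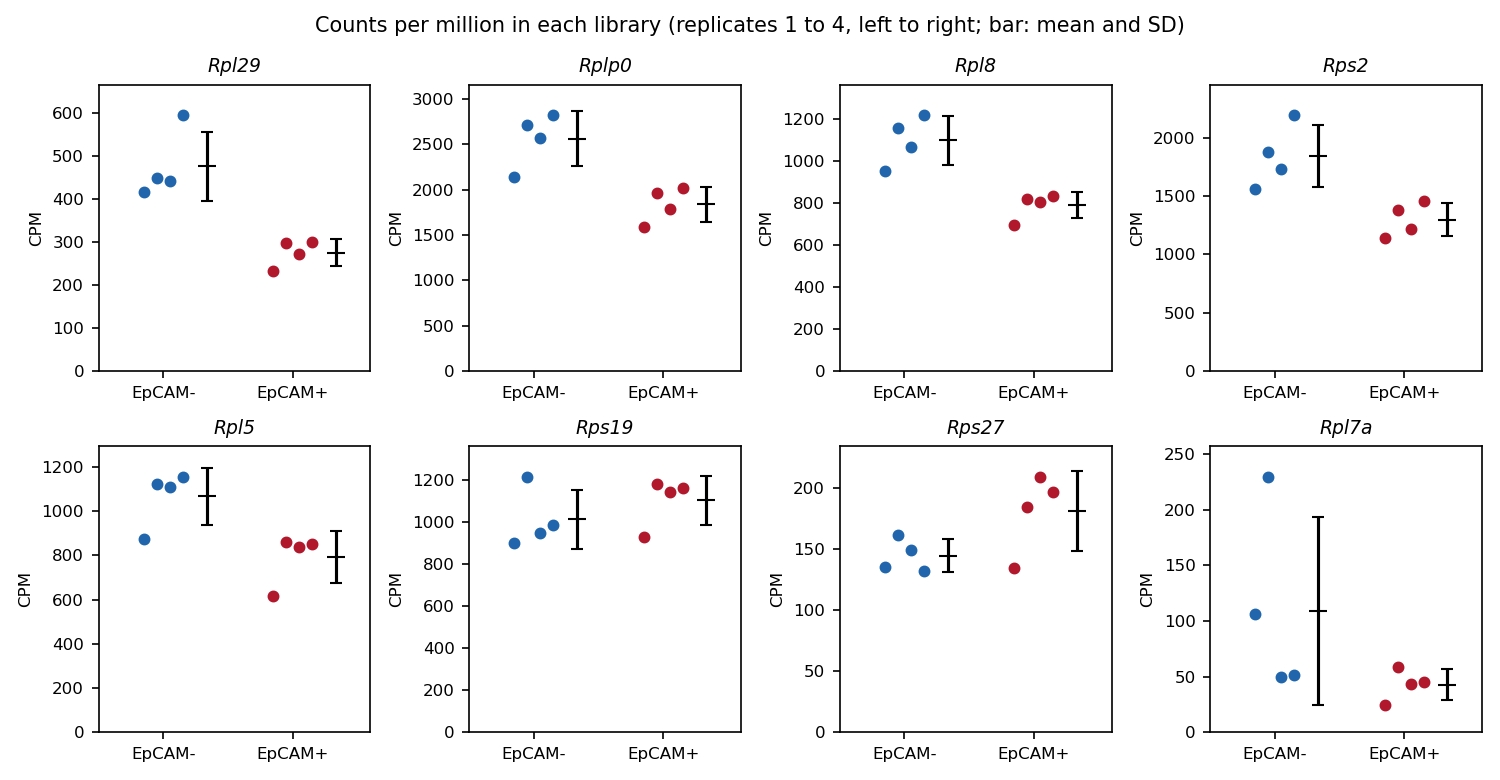
CPM of 8 core genes in each library (replicates 1 to 4 from left to right in each fraction; black bars, mean and SD, n = 4; each axis starts at 0). Rpl29, Rplp0, Rpl8, Rps2 and Rpl5 are separate between fractions, Rps19 and Rps27 overlap, and the Rpl7a difference rests on EpCAM- replicates 1 and 2.

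Rps19 and Rps14, the genes most tied to red cell failure through Diamond-Blackfan anemia and the 5q- syndrome, had estimates near 0. Rps19 was at 929.9, 1179, 1141 and 1162 CPM in EpCAM+ and 899.6, 1216, 949 and 987 CPM in EpCAM- libraries. The fractions overlapped (0.12, SE 0.12, adjusted p = 0.41). Rps14 was estimated at 0.03 (SE 0.13, adjusted p = 0.876), between 864 and 1209 CPM in EpCAM+ and between 921 and 1241 CPM in EpCAM- libraries. Of the 16 genes listed for Diamond-Blackfan anemia, 4 fell (Rpl27, Rpl5, Rps26 and Rpl11) and 0 rose, with a median of -0.27, and 12 fell with the replicate block. The share called, 25%, was close to the 20.8% of all genes that fell, and the blocked share, 75%, stood beside 24.7% of all genes. Of 8 genes whose proteins line the exit tunnel or its rim, 2 fell (Rpl4 and Rpl39) and 0 rose, with a median of -0.30, and 6 fell with the block, while Rpl23a was estimated at -0.24 (adjusted p = 0.0703). These were the same shares, 25% and 75%.

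Rps27 was the core gene with the smallest adjusted p among those with a positive estimate. It was at 134, 184, 209 and 196 CPM in EpCAM+ and 135, 161, 149 and 132 CPM in EpCAM- libraries. EpCAM+ replicate 1 lay among the EpCAM- libraries and the other 3 above them all (0.33, SE 0.13, adjusted p = 0.0647). It passed with the replicate block (0.31, adjusted p = 0.027), with DESeq2 (0.32, adjusted p = 0.0457), with upper-quartile scaling (0.41, adjusted p = 0.0312), library totals (0.41, adjusted p = 0.0305) or a minimum of 10 counts in every library (0.35, adjusted p = 0.0454), and without EpCAM+ replicate 1 (0.44, adjusted p = 0.00554).

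Rpl7a, chosen after its values were seen because its estimate was the most negative of the core genes, shows a call that rests on few libraries. It was at 24.6, 58.8, 43.5 and 45.1 CPM in EpCAM+ and 106, 229.7, 49.3 and 51.6 CPM in EpCAM- libraries. EpCAM- replicates 1 and 2 were high and the other EpCAM- libraries lay within the EpCAM+ range (-1.34, SE 0.46, adjusted p = 0.0387). Without EpCAM- replicate 2 the estimate was -0.69 (adjusted p = 0.118), and the call was also lost without EpCAM- replicate 1 or without EpCAM+ replicate 1, 3 or 4.

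Because the core genes moved together, each gene was also compared with their set, itself included. Libraries were scaled on the 77 core genes alone, an alternative chosen after seeing the data. This scaling moved the median of all genes from 0.02 to 0.26, and 4.84% of all genes were then lower and 24.9% higher. Relative to the core set, 3 of the 77 core genes were lower: Rpl29 (-0.55, adjusted p = 0.00533), Rplp0 (-0.24, adjusted p = 0.0417) and Rpl10 (-0.30, adjusted p = 0.0431). A total of 6 were higher, among them Rps27 (0.55, adjusted p = 0.00569), Rps19 (0.37, adjusted p = 0.00699), Rpl32 (0.32, adjusted p = 0.0235), Rps14 (0.27, adjusted p = 0.0255) and Rpl9 (0.31, adjusted p = 0.0287). The fold changes describe unequal change within the set. As shares of the 77, neither count exceeded the share of all genes called in the same direction in this fit. In the TMM scaling the estimates of Rps19, Rpl32, Rps14 and Rpl9 lay between 0.03 and 0.12 and none of these passed the test.

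Letters resembling the TOP motif and other known promoter motifs were counted at the starts of the core genes. RefSeq promoter windows (GRCm38.p6, 250 bases before to 50 after the annotated start) were matched for 65 of the 93 genes, 57 of them core. In the stretch from 30 bases before to 20 after the start, a run of at least 7 C or T was found on the coding strand in 57.9% of the core genes and in 29.95% of all 27025 promoters. The letters CTTTCC, a common TOP start, were found on either strand there in 17.5% of core genes and 4.37% of all promoters. On the coding strand alone they were found in 15.8% of core genes and 2.38% of all promoters. The ETS-type motif CCGGAAG, on either strand of the whole window, was found in 40.4% of core and 9.12% of all promoters. Among the 18 core genes called lower the share with a C or T run was 61.1%, and among the other 39 it was 56.4%. The windows of 3 genes that fell and 3 core genes that did not pass the test are shown to let the runs be compared, each from base -30 to +20, 5′ to 3′ on the gene's strand, with its longest C or T run in capitals.
Rpl28 (fell; chr7:4792935-4792984, + strand): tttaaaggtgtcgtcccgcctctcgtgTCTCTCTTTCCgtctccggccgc
Rplp2 (fell; chr7:141447621-141447670, + strand): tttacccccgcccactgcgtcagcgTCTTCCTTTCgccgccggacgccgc
Rplp0 (fell; chr5:115559437-115559486, + strand): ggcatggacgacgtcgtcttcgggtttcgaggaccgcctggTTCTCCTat
Rpl15 (not called; chr14:18270967-18271016, - strand): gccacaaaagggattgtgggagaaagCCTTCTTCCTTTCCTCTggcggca
Rps6 (not called; chr4:86857348-86857397, - strand): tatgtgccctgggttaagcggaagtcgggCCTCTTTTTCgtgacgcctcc
Rps27 (not called; chr3:90213629-90213678, - strand): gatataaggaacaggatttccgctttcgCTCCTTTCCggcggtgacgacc
Genes that fell and genes that did not pass the test both carried such runs in the window, of 7 to 17 bases in these 6. The runs counted need not begin at the first transcribed base. The match is of letters only, and says nothing of translation, which was not measured.

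Paralogs replace or accompany a core protein in some ribosomes or tissues. Of the 8 paralogs, Rpl10l was at 0 counts in every library, which allows up to 0.168 to 0.222 CPM (3 counts, counting error only). Rpl39l had 8 counts in EpCAM+ replicate 3, 5 in EpCAM- replicate 3 and 0 elsewhere, and Rpl3l, a striated muscle form, had 0 to 13 counts in each library. None of these 3 could be tested. Of the 5 tested, Rpl7l1 fell and 0 rose, a share of 20% beside the 20.8% of all genes that fell.

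Rpl7l1, a 60S assembly factor related to Rpl7, was at 270.2, 288, 279.9 and 265 CPM in EpCAM+ and 308, 337, 331 and 311 CPM in EpCAM- libraries. The fractions did not overlap and varied little within themselves (-0.22, SE 0.07, adjusted p = 0.0201). This call did not survive upper-quartile scaling (-0.14, adjusted p = 0.124) or library totals (-0.14, adjusted p = 0.149), nor the removal of EpCAM+ replicate 4 or of EpCAM- replicate 3. Rpl7 itself was estimated at -0.27 (adjusted p = 0.0628), and the log2 ratio of Rpl7l1 to Rpl7 differed by 0.05 between fractions (exact two-sided permutation test, p = 0.629).

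Rpl22 is known to repress its paralog Rpl22l1, and both act in blood cell development. Rpl22l1 was at 37.2, 47.2, 58.3 and 57.3 CPM in EpCAM+ and 34.7, 48.8, 38.6 and 41.7 CPM in EpCAM- libraries. The levels overlapped (0.29, SE 0.15, adjusted p = 0.147), and the gene passed only without EpCAM+ replicate 1 (0.40, adjusted p = 0.0341) or when scaled to the core genes (0.53, adjusted p = 0.0139). Rpl22 was at 111 to 131 CPM in EpCAM+ and 123 to 158 CPM in EpCAM- libraries (-0.21, adjusted p = 0.0783; with the block, adjusted p = 0.0145). Within each library, Rpl22l1 counts were 33.5, 37.6, 44.5 and 44.1% of Rpl22 counts in EpCAM+ and 28.1, 30.8, 26.3 and 28.1% in EpCAM- replicates 1 to 4. The shares did not overlap. The log2 ratio was 0.49 higher in EpCAM+ in 4 of 4 libraries, with an exact two-sided permutation p of 0.0286, the smallest that 4 against 4 allows, and an adjusted p of 0.0763 over the 8 pairs compared.

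Rps27l, known as a target of p53, was at 133, 157, 137 and 138 CPM in EpCAM+ and 155, 282, 163 and 164 CPM in EpCAM- libraries. EpCAM- replicate 2 stood far above the others, and the ranges overlapped by EpCAM+ replicate 2 (-0.44, SE 0.18, adjusted p = 0.0681; with the block -0.39, adjusted p = 0.0146). Rps27l counts were 99.1, 85.2, 65.5 and 70.4% of Rps27 counts in EpCAM+ and 115, 175, 110 and 124% in EpCAM- libraries. All EpCAM+ shares lay below all EpCAM- shares. The log2 ratio was lower in EpCAM+ (-0.70; exact two-sided permutation p = 0.0286, adjusted p = 0.0763). Without EpCAM- replicate 2 the difference was -0.56 (exact permutation p = 0.0571), and the p was also 0.0571 without EpCAM- replicate 1 or 4. For Rpl22l1 the exact permutation p rose to 0.0571 whichever EpCAM- library was left out. Neither this ratio nor that of Rpl22l1 passed the correction over 8 pairs. With all libraries both stood at the smallest p that 4 against 4 allows. The correction could be passed only if most of the pairs stood there.

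**Figure D4:**
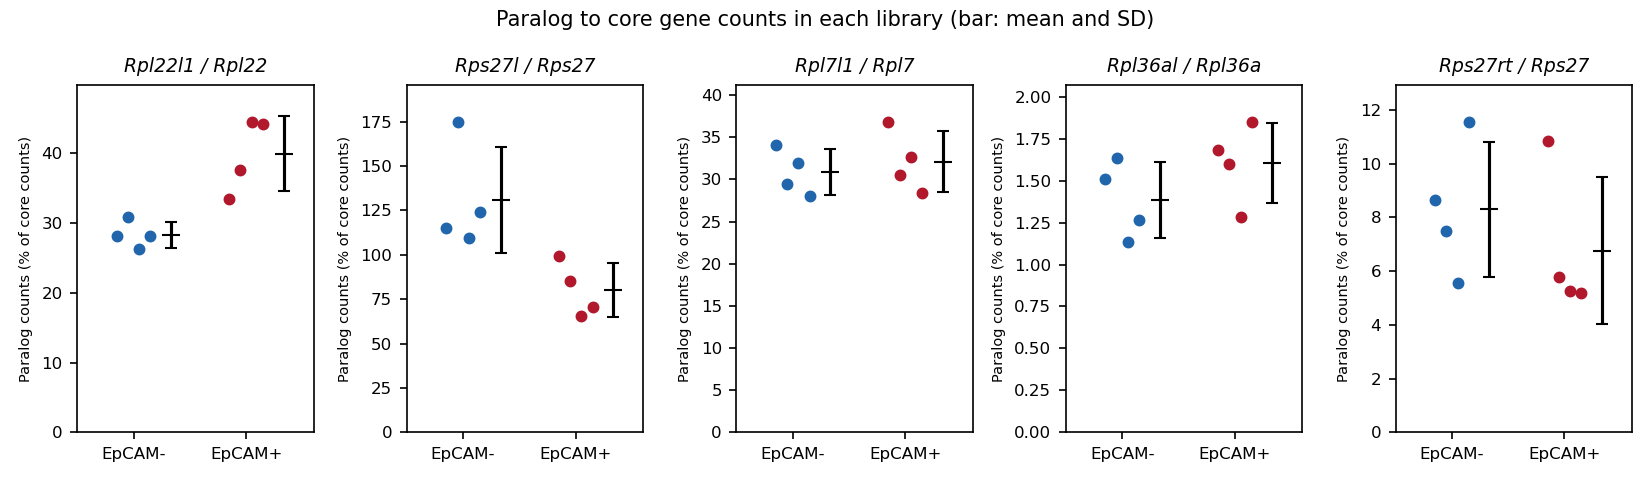
Counts of 5 paralogs as a percentage of the counts of their core gene in each library (replicates 1 to 4 from left to right; black bars, mean and SD, n = 4; each axis starts at 0). The shares of Rpl22l1 (33.5 to 44.5% against 26.3 to 30.8%) and Rps27l (65.5 to 99.1% against 110 to 175%) are separate between fractions, the other 3 overlap.

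Rpl36al was at 2.40 to 3.57 CPM in EpCAM+ and 2.46 to 3.77 CPM in EpCAM- libraries (-0.08, adjusted p = 0.802), between 1.14 and 1.85% of Rpl36a, and its ratio did not pass (exact permutation p = 0.2). Rps27rt was at 10.2 to 14.5 CPM against 8.26 to 15.2 CPM (-0.03, adjusted p = 0.919), and its ratio to Rps27 did not pass either (exact permutation p = 0.314). The other 3 of the 8 pairs join core genes to rows that are not annotated as protein-coding. The log2 ratio of Rps4l to Rps4x was 0.50 higher in EpCAM+ (exact permutation p = 0.0286, adjusted p = 0.0763), and Rps3a2 and Rps3a3 relative to Rps3a1 gave exact permutation p of 0.429 and 0.714.

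Rps27 and Rps27rt differ in position and not in coding sequence. The coding sequences of both, 252 bases in the GENCODE annotation (M21, GRCm38), are identical at every base, so that reads within them cannot be assigned to either. Rps27l differs from Rps27 at 18 of the first 60 coding bases. The first 60 coding bases are shown, with each position where the 3 genes are not all alike in capitals.
Rps27 (chr3:90212522-90213651, - strand): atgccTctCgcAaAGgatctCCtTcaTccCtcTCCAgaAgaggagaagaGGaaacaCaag
Rps27rt (chr9:114982366-114982739, - strand): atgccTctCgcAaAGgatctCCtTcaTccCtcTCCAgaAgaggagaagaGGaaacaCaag
Rps27l (chr9:66946086-66949516, + strand): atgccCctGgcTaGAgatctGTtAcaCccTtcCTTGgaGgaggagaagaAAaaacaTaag

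How far a read can be placed was measured by the share of 150-base windows of a gene's coding transcript that also occur in a transcript of another gene. The other gene may be a copy elsewhere or one whose exons overlap in place. It was above 0 in 68 of the 77 core genes, with a median of 27.8%, and above 50% in 20. It was 98.0% in Rps27, 88.2% in Rpl5, 83.3% in Rpl10, 81.1% in Rpl36a and 65.2% in Rpl7a, and 87.1% in Rps27rt, so the values of these genes are uncertain. Among other genes called lower, the share was 49.8% in Rps2, 45.9% in Rpl6, 44.9% in Rpl27, 36.6% in Rpl29 and 31.5% in Rpl28. Reads from those windows cannot be placed with certainty either. It was 0% in Rpl8, Rpl22, Rpl7l1 and Rps27l, whose levels do not rest on such windows, and 7.36% in Rplp0 and 23.8% in Rpl22l1. The median change was -0.27 log2 units in the 57 core genes with at most 50% of windows shared and -0.24 in the other 20.

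Levels per length were spread over the core genes although the proteins are made in equal numbers. The length was the deposited gene length, which can exceed that of the mRNA. For Rps19 it was 4685 bases, where the coding transcript used for the windows has 1284. The median level was 215 CPM per kilobase, with quartiles of 119 and 480 CPM per kilobase. In the small subunit Rps3a1 was highest (1449 CPM per kilobase) and Rps10 lowest (1.43 CPM per kilobase). In the large subunit Rpl24 was lowest (1.28 CPM per kilobase). The lowest genes shared much of their sequence with transcripts of other genes: 72.5% of windows in Rpl24 and 58.4% in Rps10. Some of those genes overlap them in place, as 47.0% of the exonic bases of Rpl24 and 28.7% of those of Rps10 lie in exons of other genes. Rows described as Rps10 pseudogenes held 94.5% of the reads of Rps10 and those rows together. When the reads of pseudogene rows were added to those of their core genes, Rps10 changed from 0.02 (adjusted p = 0.961) to -0.56 (adjusted p = 0.00327). The second value describes mostly the pseudogene rows, and the origin of their reads was not tested. Rps3a1 ranged from 1192 to 1695 CPM per kilobase over the 8 libraries, and its range overlapped those of Rplp0 (958 to 1700 CPM per kilobase) and Rpl4 (864 to 1438 CPM per kilobase). The top genes by deposited FPKM shared 7 of 10 with those by CPM per kilobase, and Rps3a1 was only number 11 by FPKM, below Rps14, Rps2, Rps18, Rps6 and Rps9. The ratio of FPKM to CPM per kilobase had a median of 2.65. FPKM was 1443 against 1449 CPM per kilobase for Rps3a1, and 1276 against 226 for Rps19. The part of the length used in the spread and order of levels was not tested.

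**Figure D5:**
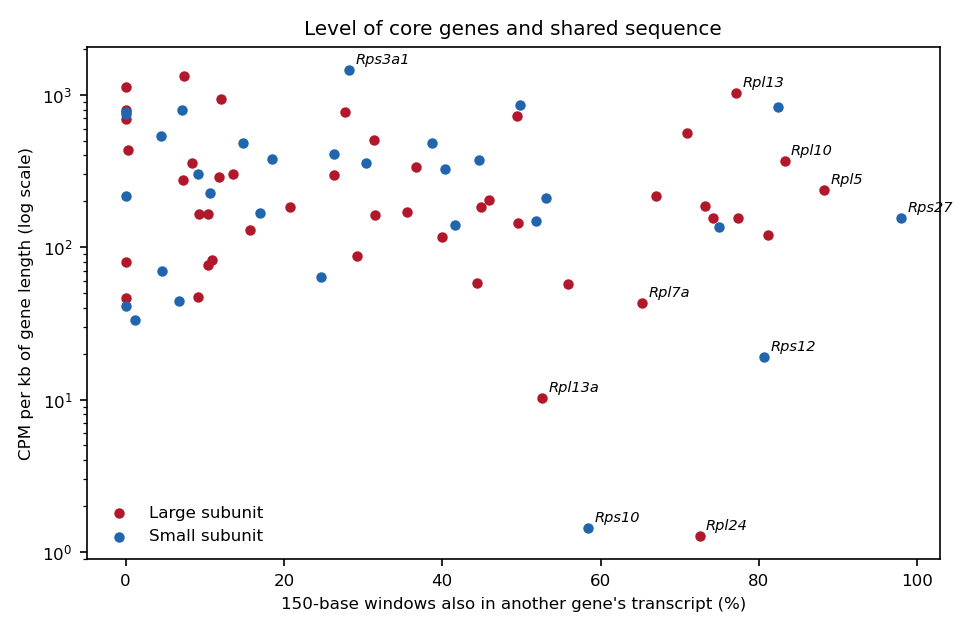
Level of the core genes, all but 2 of the 77 (CPM per kilobase of gene length, log axis) against the share of its 150-base windows that also occur in a transcript of another gene (%). The 4 genes below 20 CPM per kilobase, Rpl24, Rps10, Rpl13a and Rps12, all lie above 50%.

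The 8 copies with pseudogene names lay below their core genes in CPM. Per length Rps12-ps3 was at 13.2 and Rps12 at 19.0 CPM per kilobase. Of their windows 100% and 80.7% were shared, so these levels are uncertain. Rpl9-ps1, Rpl36-ps4 and Rpl13a-ps1 were at 0 in every library. Of the 5 tested, Rpl10-ps3 fell, from 2.50 to 3.97 CPM in EpCAM- to 1.29 to 2.29 CPM in EpCAM+ libraries (-0.86, SE 0.26, adjusted p = 0.0223), with 95.5% of its windows shared with Rpl10 or other copies of it. The call was lost without EpCAM+ replicate 3, EpCAM- replicate 2 or EpCAM- replicate 4. The share of tested copies that fell was 20%, beside 20.8% of all genes. The other copies were estimated at -0.56 (Rpl36a-ps1), -0.49 (Rps12-ps3), -0.43 (Rpl27-ps3) and -0.04 (Rpl9-ps6), with adjusted p from 0.0822 to 0.858. All rows described as ribosomal protein pseudogenes together held 2.31 to 2.45% as many reads as the 93 genes.

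Ribosomal proteins under other names and genes that serve ribosome assembly and translation were examined next, and 20.8% of all genes fell in the same test. Rack1, a scaffold of the 40S subunit, fell by 0.68 (SE 0.12, adjusted p = 0.00184). Fau, which encodes Rps30 fused to a ubiquitin-like protein, was estimated at -0.25 (adjusted p = 0.0643; with the block, adjusted p = 0.00395). Of 16 translation factors and other genes with TOP mRNAs, 12 fell and 0 rose (median -0.35), with the smallest adjusted p for Eif3f (-0.52), Eef1g (-0.62) and Eef1d (-0.55). Of 13 chaperones and importers of ribosomal proteins, 10 fell and 0 rose (median -0.39), led by Bysl (-1.16, adjusted p = 0.000226), a 40S assembly factor, Grwd1 (-0.64, adjusted p = 0.000256), the Rpl3 chaperone, and the importin Ipo7 (-0.48, adjusted p = 0.000401). Of 15 genes of the mTORC1, LARP1 and S6 kinase pathway, 8 fell and 0 rose (median -0.25), among them Eif4ebp1 (-0.63, adjusted p = 0.00158), Larp4 (-0.39, adjusted p = 0.00197) and Larp1 (-0.43, adjusted p = 0.0113), which binds TOP mRNAs. The estimates of 4 of the 15 were above 0, including Tsc1 (0.29, adjusted p = 0.0547, higher in EpCAM+ without overlap) and Rptor (0.25, adjusted p = 0.0911; with the block, adjusted p = 0.0496). Of the 9 neutrophil and monocyte markers 5 were lower in EpCAM+ and 1, Lyz2, was higher (0.68, adjusted p = 0.00391). Of the 8 erythroid and megakaryocyte markers tested 5 were lower and 2 had estimates above 0. Among the 9 dendritic cell markers tested, 7 were higher in EpCAM+ and 2 had estimates below 0. The part of these markers in the differences was not tested.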

How the data were processed

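RNA was taken from sorted EpCAM+ and EpCAM- Zeb1-/- LSK cells, and its cDNA was amplified and sequenced as 150-base read pairs. Per the labels the reads were aligned with STAR 2.6.1d to GRCm38.p6 and counted with featureCounts 1.5.0-p3; the strand setting and the treatment of reads with several matches are not given in the sources used here. The table deposited by the authors holds raw counts per gene and FPKM for 8 libraries, with gene lengths. Its columns of log2 fold changes and p-values, made by the authors with DESeq2 1.20.0, were not used.

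Raw counts were filtered with filterByExpr, scaled by TMM and fitted with edgeR 4.0.16 (quasi-likelihood, 2-sided, no block; R 4.3.3), with Benjamini-Hochberg adjustment over 13560 genes at a threshold of 0.05. CPM are per 1e6 reads on the genes tested, with library sizes scaled by TMM. Statements on whether fractions overlap in CPM hold under this scaling. Ratios used log2 CPM with a prior count of 2 and exact permutation tests over libraries. The alternatives were DESeq2 1.42.0, limma 3.58.1, other scalings and filters, a replicate block and leaving out each library. The fit was tested on simulated data. Sequences came from RefSeq and GENCODE M21, and plots were made with matplotlib 3.10.9.

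The labels number the replicates 1 to 4 in both fractions without saying whether a number marks one mouse. Deviations from the fraction means correlated at 0.21 to 0.36 across genes within the 4 same-numbered pairs and at -0.22 to 0.04 in the 12 others. The numbers were therefore taken to pair the libraries in the blocked fit and in the differences within pairs. The analysis reported and the exact tests of ratios did not use the pairing. Across the core genes alone the correlations were -0.23 to 0.23 and -0.27 to 0.33. These leave out the shift that the core genes of a library share, so they cannot show whether that shift is paired. The median deviation of the core genes from their fraction mean was -0.26, 0.10, 0.06 and 0.12 in EpCAM+ replicates 1 to 4. In EpCAM- replicates 1 to 4 it was -0.23, 0.20, -0.05 and 0.08. Libraries of a fraction differed by more than counting noise (chi-square per degree of freedom of 10.3 to 97.4 over 12 pairs), and none was counted as a repeat. The p-values measure the spread between these libraries. Reads carry no molecular identifiers, so limits from counts cover counting error only.

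The members, the gene lists and the tests were chosen with earlier results of these data known. The genes named were all paralogs and copies with their core partners, the 10 core genes of smallest adjusted p among those called, the extremes of level per length in each subunit, the stalk and 5S genes, Rps19 and Rps14, ribosomal proteins with other names, and 3 genes of each further ribosomal or translation list; marker lists of cell types are given as sums. Rpl7a, and genes named only for the scaling to core genes, for shared windows, for a low level or for their sequence, were chosen after their values were seen. Values of a few genes that this rule covers are not reported here, though counts and medians include them.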

Additional observations from a re-analysis of the deposited data

Results flagged for a closer look

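A total of 92 sets of 4 libraries were screened for a library that stood apart from the other 3 of its fraction by Dixon's criterion, which chance meets in about 1 set in 20, and 7 met it. Rps27l stood at 282 CPM in EpCAM- replicate 2, where the others were at 155 to 164 CPM. Rps10 stood at 5.48 CPM in the same library, against 2.43 to 2.75 CPM. In EpCAM+ replicate 1, Rpl36a was at 144 CPM (others 187 to 193 CPM), Rpl5 at 615 CPM (838 to 861 CPM) and Rps19 at 929.9 CPM (1141 to 1179 CPM), all low, and the log2 ratio of Rps27rt to Rps27 was high at -3.19 (-4.25 to -4.09). Rpl5 was also low in EpCAM- replicate 1, at 873 CPM, where the others were at 1111 to 1156 CPM. EpCAM+ replicate 1 was the library with the smallest share of reads on ribosomal protein genes (3.62%) and the highest summed B cell and plasma cell markers (23739 CPM); their part in these values was not tested.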

How the results depend on the processing

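The number of core genes called lower, 22 in the analysis reported, was 34 with DESeq2, 11 with upper-quartile scaling, 13 with library totals, 51 with the replicate block and 3 when scaled to the core genes (chosen after seeing the data), and it ran from 13 to 39 when 1 library was left out. The number called higher, 0 as reported, was 1 with DESeq2, upper-quartile scaling, library totals, 10 counts in every library or the replicate block, 6 when scaled to the core genes, and 0 to 1 when 1 library was left out. Shares of all genes called are given only for the analysis reported, the replicate block and the scaling to the core genes. Upper-quartile scaling, library totals and a filter of 1 count moved the median of all genes to 0.11, 0.11 and 0.14. The core, large and small subunit medians became -0.028, -0.032 and 0.042 when scaled to the core genes, the last a change of sign, and the core median was between -0.34 and -0.19 when 1 library was left out. With pseudogene reads added Rps10 turned to -0.56, and with scaling to the core genes Rpl7l1 turned to 0.023. Without EpCAM+ replicate 1 the log2 ratio of Rpl7l1 to Rpl7 turned to -0.017 and that of Rps3a3 to Rps3a1 to -0.0028, the latter lying between -0.0028 and 0.18 over all libraries left out. The cause of these changes was not tested, except that scaling to the core genes centres them by construction. Of 739 further values, for 37 genes named, 653 kept their side of the threshold. A further 61 lost the call, 23 gained one and 2 were classed as reversed. The 653 include estimates near 0 that changed sign, such as Rps14 (-0.048 to 0.12 when 1 library was left out). With no unamplified or spike-in reference, total RNA per cell is unknown, and at 4 libraries a fraction the exact tests cannot go below p = 0.0286.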
